A study of Mus musculus with 12 samples.

Results

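The genes described are 9 that interferon gamma induces in mouse cells: the transcription factor gene Irf1, the class I transactivator gene Nlrc5, the guanylate-binding GTPase genes Gbp2 and Gbp4, the immunity-related GTPase genes Irgm1, Igtp and Iigp1, and the chemokine genes Cxcl9 and Cxcl10. They were chosen by gene symbol, with earlier results of these data known. All 9 are among the 19921 symbols of the count tables, and 7 of the 9 were among the 5443 genes with enough counts to be tested. Cxcl9 and Nlrc5 were not, and are described by their counts.

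The tumours came from Colon26, a mouse colon carcinoma line, of which 200000 cells were implanted under the skin of the flank of BALB/c wild-type mice. The 12 libraries form 4 groups of 3. The combination group (minP1_PDL1) is known as such from the sample titles, since its treatment label names the antibody after a plus sign and no peptide. The anti-PD-L1 group (PDL1) received 200 µg of the antibody clone 10F.9G2, which binds the checkpoint ligand PD-L1, on day 4 and again on day 8. The minP1 group (minP1) received 0.08 µg of minP1, a peptide derived from the chromatin protein HMGN1 that stimulates immune cells, on day 9. The control group (Ct) is labelled control, and whether it was given a carrier or an isotype antibody is not given in the sources used here. Both agents were given into the peritoneum, and the doses are those that the protocol states for the study. All tumours were taken on day 10 and digested. A Percoll gradient removed part of the tumour cells and the dead cells, and messenger RNA of the cells that were left was read from its 5′ ends. Each library is the tumour of a separate implanted mouse, so the spread within a group includes that between animals.

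Interferon gamma is made by T cells and natural killer cells. It binds the receptor of Ifngr1 and Ifngr2 subunits, and signalling through the kinases Jak1 and Jak2 activates genes with a GAS element, such as Irf1. IRF1 and related factors bind the interferon-stimulated response element (ISRE) of further genes. The GTPases attack the vacuoles of intracellular pathogens and the chemokines attract T cells that carry CXCR3. Type I interferons, acting through a complex that holds IRF9, also induce most of these genes, so their level does not tell which interferon acted.

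The promoters below show where these elements stand in the members. RefSeq promoters (GRCm38.p6, 250 bases before and 50 after the annotated start) were found for 6 of the 9 genes, and none was in the table for Gbp4, Iigp1 and Nlrc5. They were searched for the ISRE core, which is GAAA, any 2 bases and GAAA again, on both strands and for the GAS letters TTCNNNGAA, which read the same on both strands. Capitals mark the matches, and the sequences run 5′ to 3′ on the gene's strand. Irf1 (chr11:53769764-53770013, plus strand) has a GAS match at positions -90 to -82 from its start, and the window of its other RefSeq start (chr11:53770223-53770472) holds neither. Igtp (chr11:58199306-58199555, plus strand) has a GAS match at -45 to -37 and an ISRE core match at -34 to -25. Cxcl10 (chr5:92348890-92349139, minus strand) has an ISRE core match at -213 to -204. The neighbouring chemokine gene Cxcl9 (chr5:92328080-92328329, minus strand) has neither in this window and is shown beside it. For Gbp2 (chr3:142620594-142620623, plus strand) and Irgm1 (chr11:48871428-48871457, minus strand) only the 30 bases around the match are shown, because their windows overlap annotated transcripts. By the GENCODE M21 starts given further on, these matches lie inside both genes, so the positions hold for the RefSeq starts only. The Gbp2 match is at -59 to -50, and the Irgm1 stretch holds 2 overlapping ISRE core matches, at -30 to -21 and -24 to -15.
Irf1: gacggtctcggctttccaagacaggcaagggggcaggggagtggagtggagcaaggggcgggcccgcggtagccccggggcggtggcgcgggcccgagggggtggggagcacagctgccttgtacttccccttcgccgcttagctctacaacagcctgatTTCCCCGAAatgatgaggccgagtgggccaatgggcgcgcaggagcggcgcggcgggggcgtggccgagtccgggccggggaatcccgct
Igtp: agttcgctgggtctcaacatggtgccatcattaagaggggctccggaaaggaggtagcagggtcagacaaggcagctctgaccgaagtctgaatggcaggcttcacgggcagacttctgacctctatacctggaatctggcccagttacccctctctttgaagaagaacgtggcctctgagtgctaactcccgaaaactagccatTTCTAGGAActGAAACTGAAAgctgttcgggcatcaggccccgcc
Cxcl10: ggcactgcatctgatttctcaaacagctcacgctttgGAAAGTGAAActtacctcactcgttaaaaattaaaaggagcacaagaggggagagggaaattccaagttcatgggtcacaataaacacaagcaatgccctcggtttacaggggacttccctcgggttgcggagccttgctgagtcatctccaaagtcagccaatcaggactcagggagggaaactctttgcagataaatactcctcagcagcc
Cxcl9: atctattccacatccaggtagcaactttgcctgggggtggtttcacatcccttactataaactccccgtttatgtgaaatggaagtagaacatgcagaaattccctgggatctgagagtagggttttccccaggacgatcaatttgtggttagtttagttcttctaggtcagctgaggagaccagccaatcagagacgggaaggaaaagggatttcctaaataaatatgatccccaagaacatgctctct
Gbp2: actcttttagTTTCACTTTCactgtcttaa
Irgm1: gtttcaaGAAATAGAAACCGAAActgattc

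The ISRE core was found in 4 of the 6 promoters and the GAS letters in 2 of 6, with 5 of 6 holding at least 1 of the pair. Among 27025 mouse genes with a promoter of the same length, 3.99% held the ISRE core, 9.55% the GAS letters and 12.9% either. A match describes letters and is not evidence of binding.

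**Figure D1:**
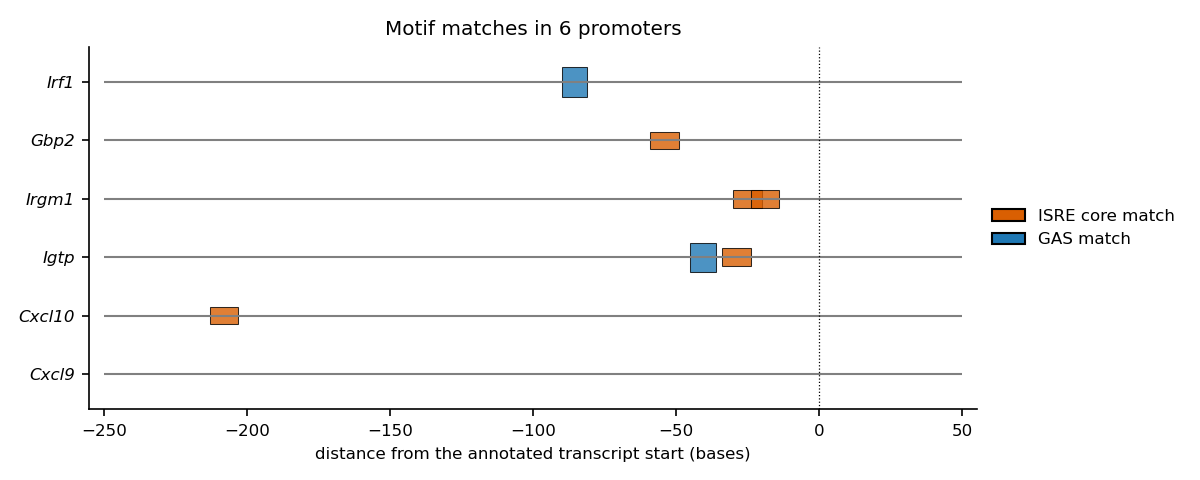
Positions of ISRE core matches (orange) and GAS matches (blue) along 6 promoters, one line per gene; the x axis is the distance in bases from the RefSeq transcript start (dotted line). All matches lie before the RefSeq start, the one of Cxcl10 farthest away, and Cxcl9 holds none.

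Levels are given as CPM, the counts of a gene scaled to 1000000 counts in tested genes, with the library sizes adjusted by TMM factors of edgeR. Behind ± stands the SD of the 3 libraries for a level, and the standard error for a log2 fold change. Adjusted p-values are from edgeR's quasi-likelihood test with Benjamini-Hochberg adjustment over the 5443 genes, and a gene is said to rise or fall where the value was under 0.05. In bulk tissue, fewer cells of a type and less RNA per cell cannot be told apart. Libraries held 133917 to 473273 counts, with 133917 to 196109 in the combination and 285753 to 473273 in control. One count was worth 5.64 to 8.54 CPM there, against 2.24 to 3.66 CPM in control.

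Irf1 (chromosome 11, 53770014 to 53778374, plus strand, GENCODE M21 on GRCm38), the transcription factor that passes the interferon signal on, was the one member with every treated library above every control. Replicates 1, 2 and 3 had 273, 322 and 463 CPM in the combination, 308, 397 and 358 CPM with anti-PD-L1, and 267, 278 and 336 CPM with minP1, against 80.1, 95.1 and 253 CPM in control. The lowest treated library stood above the highest control library, and control replicate 3 stood far above the other controls. Means were 353 ± 98.3 CPM in the combination, 354 ± 44.3 CPM with anti-PD-L1, 294 ± 36.9 CPM with minP1 and 143 ± 95.8 CPM in control (n = 3 each), so the first 3 did not differ beyond their spread.

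Irf1 rose in the combination against control by 1.28 ± 0.33 on the log2 scale (adjusted p = 0.00477). With anti-PD-L1 alone it rose by 1.28 ± 0.32, at an adjusted p of 0.04998 that lies at the threshold. The minP1 difference was 1.0 ± 0.32 and did not pass (adjusted p = 0.428). The differences were larger without control replicate 3, namely 2.02 in the combination, 2.03 with anti-PD-L1 and 1.75 with minP1, and the last also passed (adjusted p = 0.0199). The anti-PD-L1 call was lost without control replicate 1 (1.02, adjusted p = 0.0969), without control replicate 2 (1.10, adjusted p = 0.189) and without any 1 of the anti-PD-L1 libraries (adjusted p from 0.0773 to 0.131). It was also lost without minP1 replicate 1 (adjusted p = 0.0541) or combination replicate 2 (adjusted p = 0.0539).

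Of the 7 tested members, 2 rose in the combination against control (Irf1 and Gbp4), 1 rose with anti-PD-L1 (Irf1) and 0 passed with minP1, and 0 fell in these 3 comparisons. Over all 5443 genes, 34.8% passed in the combination in either direction, 16.5% higher and 18.3% lower. With anti-PD-L1 1.12% passed and 0.551% were higher. With minP1 0% passed in edgeR, although 383 genes (7.04%) had an unadjusted p under 0.05, and DESeq2 called 1 gene and limma voom 0. The share of members called in the combination is thus near that of all genes. The median log2 fold change of the 7 members was 0.66 in the combination, 0.68 with anti-PD-L1 and 0.62 with minP1, beside medians over all genes of -0.06, -0.03 and -0.00. It was above 0 for 6 of 7 members in the combination and for 7 of 7 with each lone treatment, beside 47.7%, 47.8% and 49.6% of all genes. These 3 comparisons share the control libraries. The members are not separate observations either, since control replicate 3 was the highest control for 8 of the 9. The medians and counts of signs are therefore a description.

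**Figure D2:**
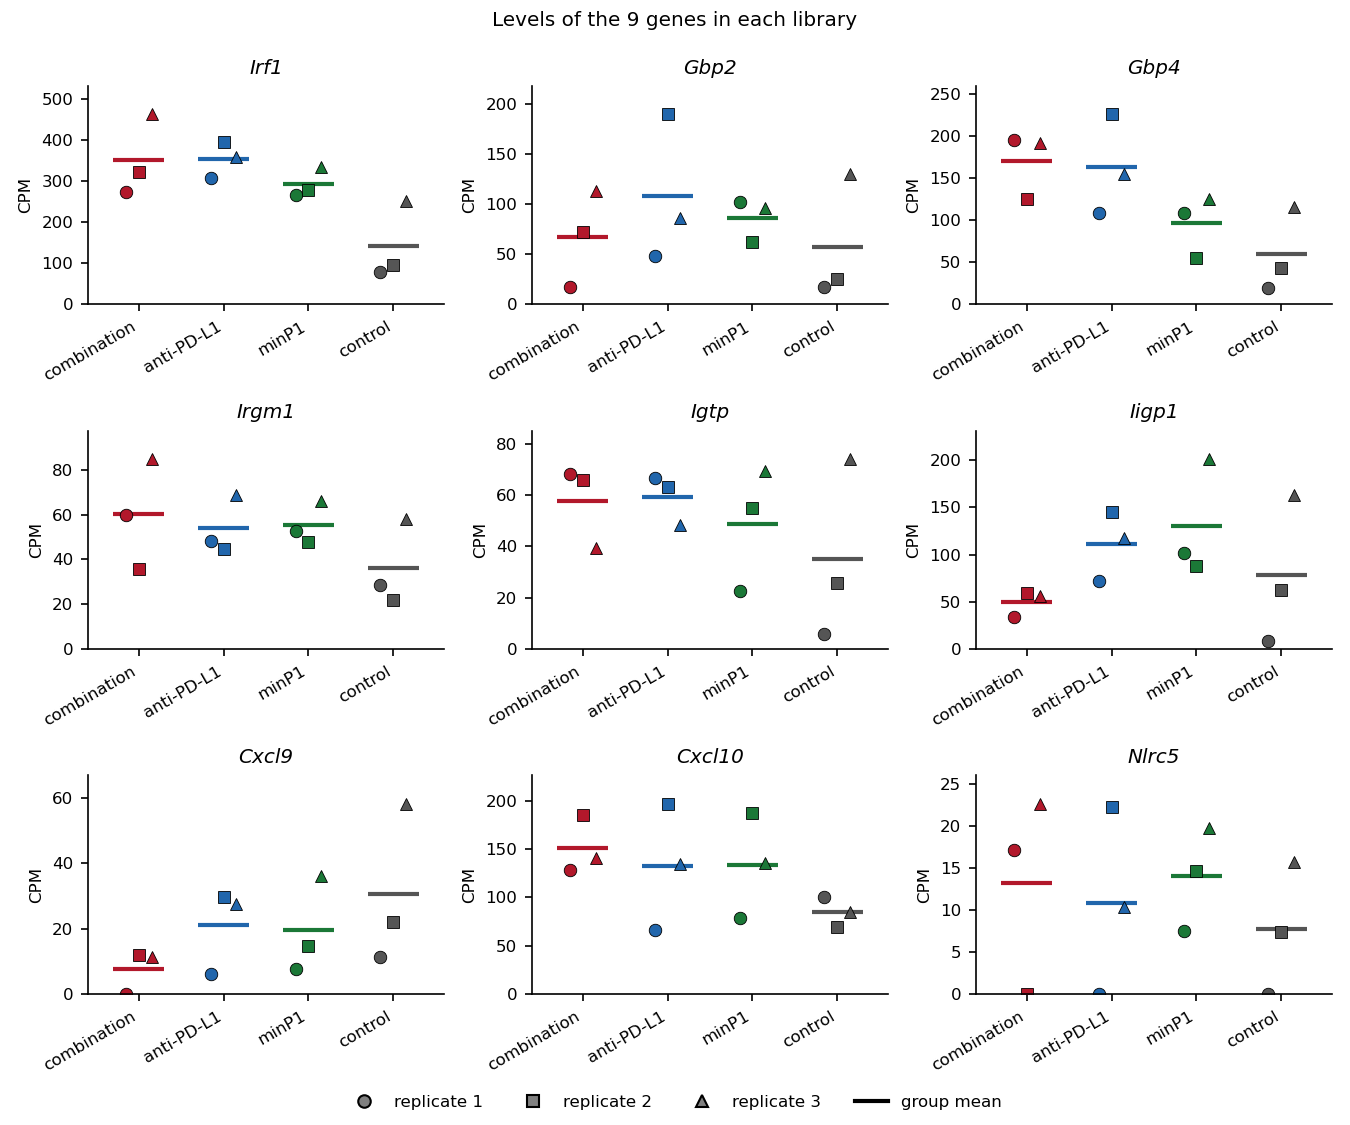
CPM of the 9 genes (y axis, linear, from 0) in each library, with the combination, anti-PD-L1, minP1 and control from left to right; points are replicates 1 (circle), 2 (square) and 3 (triangle) and lines are group means. For Irf1 all 9 treated libraries lie above the control libraries, and for most genes the control triangle, replicate 3, stands well above the other controls.

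Gbp4 and Gbp2 belong to the guanylate-binding proteins, large GTPases that assemble on pathogen vacuoles. Gbp4 (chromosome 5, 105115767 to 105139586, minus strand) had 196, 125 and 192 CPM in the combination, 109, 226 and 155 CPM with anti-PD-L1, and 109, 54.9 and 125 CPM with minP1, against 20.0, 43.9 and 116 CPM in control. The combination libraries did not overlap the control libraries, and those of the lone treatments did. Gbp4 rose in the combination against control by 1.42 ± 0.44 (adjusted p = 0.0142). The anti-PD-L1 difference was of like size, 1.39 ± 0.41, and did not pass (adjusted p = 0.0935), and that of minP1 was 0.62 ± 0.43 (adjusted p = 0.819). Without control replicate 3 the combination value was 2.43, and Gbp4 then also passed with anti-PD-L1 (2.41, adjusted p = 0.0044); without minP1 replicate 2 it passed there too (1.42, adjusted p = 0.034).

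The starts of Gbp4, Gbp8 and Gbp9 are annotated at 105139586, 105139540 and 105139539 on the same strand. A 5′ tag in this stretch cannot be given to one of these genes with certainty, so the Gbp4 counts may hold reads of its neighbours.

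Gbp2 (chromosome 3, 142620602 to 142638008, plus strand) had 17.1, 71.6 and 113 CPM in the combination, 48.4, 189 and 86.1 CPM with anti-PD-L1, and 102, 62.2 and 95.5 CPM with minP1, against 17.2, 25.6 and 130 CPM in control. Every group overlapped the control, and the SD was 48.0 CPM in the combination, 72.8 CPM with anti-PD-L1 and 21.2 CPM with minP1, against 62.8 CPM in control. The differences from control were 0.21 ± 0.60 in the combination (adjusted p = 0.811), 0.86 ± 0.53 with anti-PD-L1 (adjusted p = 0.405) and 0.49 ± 0.54 with minP1 (adjusted p = 0.916). Without control replicate 3, Gbp2 passed in the combination (1.74, adjusted p = 0.0409) and with anti-PD-L1 (2.39, adjusted p = 0.0321).

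The immunity-related GTPases Irgm1, Igtp and Iigp1 act in the same defence, with Irgm1 and Igtp as regulators that sit on the cell's own membranes and Iigp1 as an effector loaded onto the vacuole of the parasite. None of the 3 passed against control in any treatment. Irgm1 (chromosome 11, 48861968 to 48871683, minus strand) had 59.8, 35.8 and 84.6 CPM in the combination, 48.4, 44.5 and 68.9 CPM with anti-PD-L1, and 52.7, 47.6 and 65.9 CPM with minP1, against 28.6, 21.9 and 58.2 CPM in control. All 9 treated libraries were above control replicates 1 and 2, and 4 of the 9 were above replicate 3. Its differences from control were 0.66 ± 0.43 in the combination, 0.52 ± 0.40 with anti-PD-L1 and 0.54 ± 0.39 with minP1 (adjusted p = 0.241, 0.528 and 0.819).

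Igtp (chromosome 11, 58199556 to 58207591, plus strand) had 68.3, 65.6 and 39.5 CPM in the combination, 66.5, 63.0 and 48.2 CPM with anti-PD-L1, and 22.6, 54.9 and 69.2 CPM with minP1, against 5.72, 25.6 and 73.9 CPM in control. The highest Igtp level of all 12 libraries was thus in a control. The differences from control were 0.59 ± 0.56 in the combination, 0.64 ± 0.52 with anti-PD-L1 and 0.40 ± 0.51 with minP1 (adjusted p = 0.433, 0.548 and 0.930). Without control replicate 3 the combination value was 1.90 and passed (adjusted p = 0.0237).

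Iigp1 (chromosome 18) was ordered differently. It had 34.1, 59.7 and 56.4 CPM in the combination, 72.5, 145 and 117 CPM with anti-PD-L1, and 102, 87.9 and 201 CPM with minP1, against 8.59, 62.2 and 163 CPM in control. The combination libraries lay below every library of either lone treatment and inside the control range. Against control the difference was -0.66 ± 0.61 in the combination, 0.49 ± 0.50 with anti-PD-L1 and 0.68 ± 0.49 with minP1 (adjusted p = 0.421, 0.653 and 0.819). The sign in the combination rests on control replicate 3, without which it was 0.62 (adjusted p = 0.474).

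**Figure D3:**
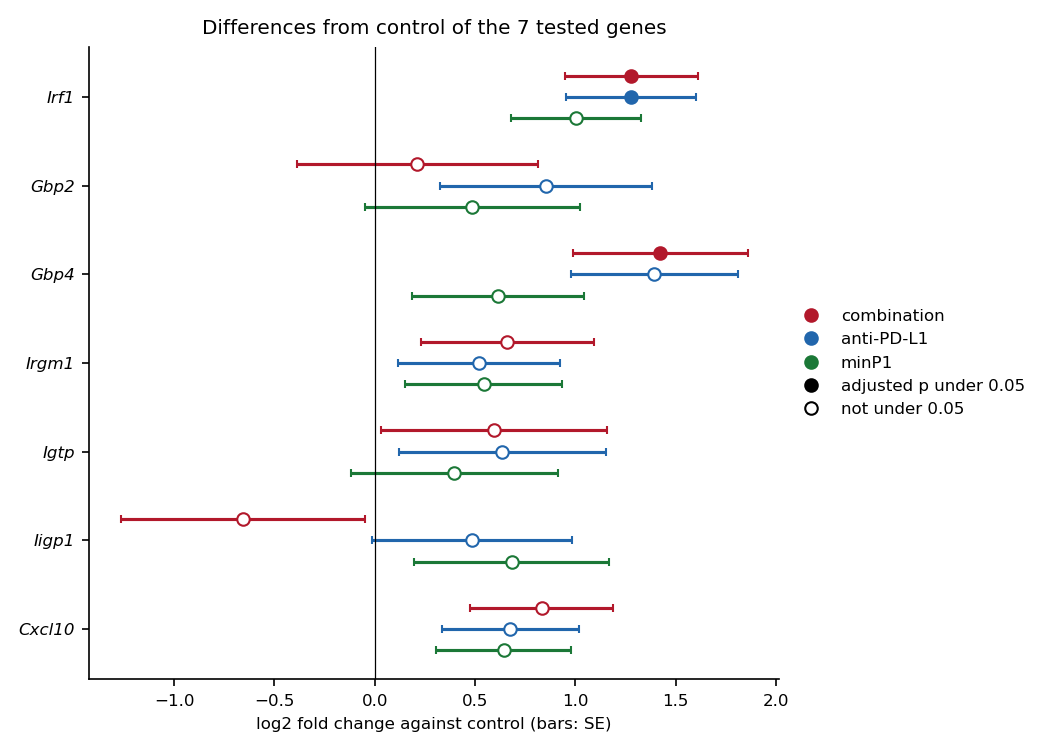
Log2 fold change against control (x axis) of the 7 tested genes, in the order combination (red), anti-PD-L1 (blue) and minP1 (green) from top to bottom for each gene; bars are standard errors and filled points passed at an adjusted p under 0.05. The 3 filled points are Irf1 in the combination and with anti-PD-L1, and Gbp4 in the combination; Iigp1 in the combination is the one value below 0.

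The chemokines Cxcl10 and Cxcl9 share the receptor CXCR3 and lie next to each other on chromosome 5. Cxcl10 (92346638 to 92348889, minus strand) had 128, 185 and 141 CPM in the combination, 66.5, 196 and 134 CPM with anti-PD-L1, and 79.0, 187 and 135 CPM with minP1, against 100, 69.5 and 85.1 CPM in control. The combination libraries did not overlap the control libraries. The difference was 0.83 ± 0.36 in the combination, 0.68 ± 0.34 with anti-PD-L1 and 0.64 ± 0.34 with minP1, and none passed (adjusted p = 0.0714, 0.296 and 0.753). Cxcl10 was the one tested member in which control replicate 3 was not the highest control. It passed in the combination without minP1 replicate 2 (0.87, adjusted p = 0.0414) and without anti-PD-L1 replicate 1 (0.87, adjusted p = 0.0391), without both (0.87, adjusted p = 0.0274) and with only these groups fitted (0.82, adjusted p = 0.0442). Without combination replicate 2 it was 0.72, and the adjusted p reached 0.204 on leaving out 1 library.

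Cxcl9 (92321347 to 92328079, minus strand) was read 74 times in all. The libraries held 0, 2 and 2 counts in the combination, 1, 8 and 8 with anti-PD-L1, and 2, 4 and 11 with minP1, against 4, 6 and 26 in control. As CPM this was 7.74 ± 6.71 in the combination, 21.1 ± 13.1 with anti-PD-L1, 19.5 ± 14.9 with minP1 and 30.5 ± 24.5 in control, so by group mean Cxcl9 was lowest where Cxcl10 was highest. A count of 0 in combination replicate 1 allows up to 3 counts, or 25.6 CPM, for counting error alone. In a fit of all genes with counts the combination differed from control by -1.92 ± 0.73 (adjusted p = 0.0748), anti-PD-L1 by -0.46 ± 0.53 (adjusted p = 0.81) and minP1 by -0.68 ± 0.53 (adjusted p = 0.859). None passed in that fit, where 9.66%, 0.838% and 0.256% of all genes did.

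Nlrc5, which drives the genes of MHC class I, was read 36 times (chromosome 8, 94434356 to 94527272, plus strand). Counts were 2, 0 and 4 in the combination, 0, 6 and 3 with anti-PD-L1, and 2, 4 and 6 with minP1, against 0, 2 and 7 in control. No difference was detectable at this depth: without the filter the differences from control were 0.56 ± 0.86 in the combination, 0.56 ± 0.78 with anti-PD-L1 and 0.76 ± 0.74 with minP1 (adjusted p = 0.743, 0.821 and 0.859).

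Beside the calls, 3 members had no overlap with control and were higher in the combination (Irf1, Gbp4 and Cxcl10), 1 with anti-PD-L1 (Irf1) and 1 with minP1 (Irf1). Among all genes tested 20.4%, 11.1% and 5.7% were higher without overlap in these comparisons.

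Much of the uncertainty lies in the control group. Control replicate 3 was the highest control for 8 of the 9 members (for 31.7% of all tested genes), and for 6 of the 7 tested members it reached at least 2 times both other controls, which held for 1.6% of all tested genes. Its level over the mean of replicates 1 and 2 was 6.07 for Gbp2, 4.72 for Igtp, 4.62 for Iigp1, 3.64 for Gbp4, 3.49 for Cxcl9, 2.89 for Irf1, 2.30 for Irgm1 and 1.0 for Cxcl10. The CPM of the 9 genes summed to 794, 877 and 1123 in the combination, 725, 1312 and 1006 with anti-PD-L1, and 749, 802 and 1083 with minP1, against 272, 373 and 954 in control. Every treated library was above control replicates 1 and 2, and 4 of the 9 were above replicate 3.

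Marker lists of immune cells were summed in the same libraries. The natural killer markers summed to 42.9, 47.5 and 91.8 CPM, the T cell markers to 54.4, 32.9 and 67.2 CPM and the macrophage and monocyte markers to 1065, 1097 and 1102 CPM in control replicates 1, 2 and 3. The dendritic cell markers summed to 22.9, 47.5 and 62.7 CPM and the neutrophil markers to 372, 311 and 336 CPM in the same order. Outside the immune lists, the fibroblast markers summed to 890, 1108 and 1323 CPM. The only 2 counts of Ifng in the series were in control replicate 3, the deepest library (473273 counts). They are fewer than the 3 counts that counting error alone allows for a count of 0. The part of the markers and of Ifng in the result was not tested.

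**Figure D4:**
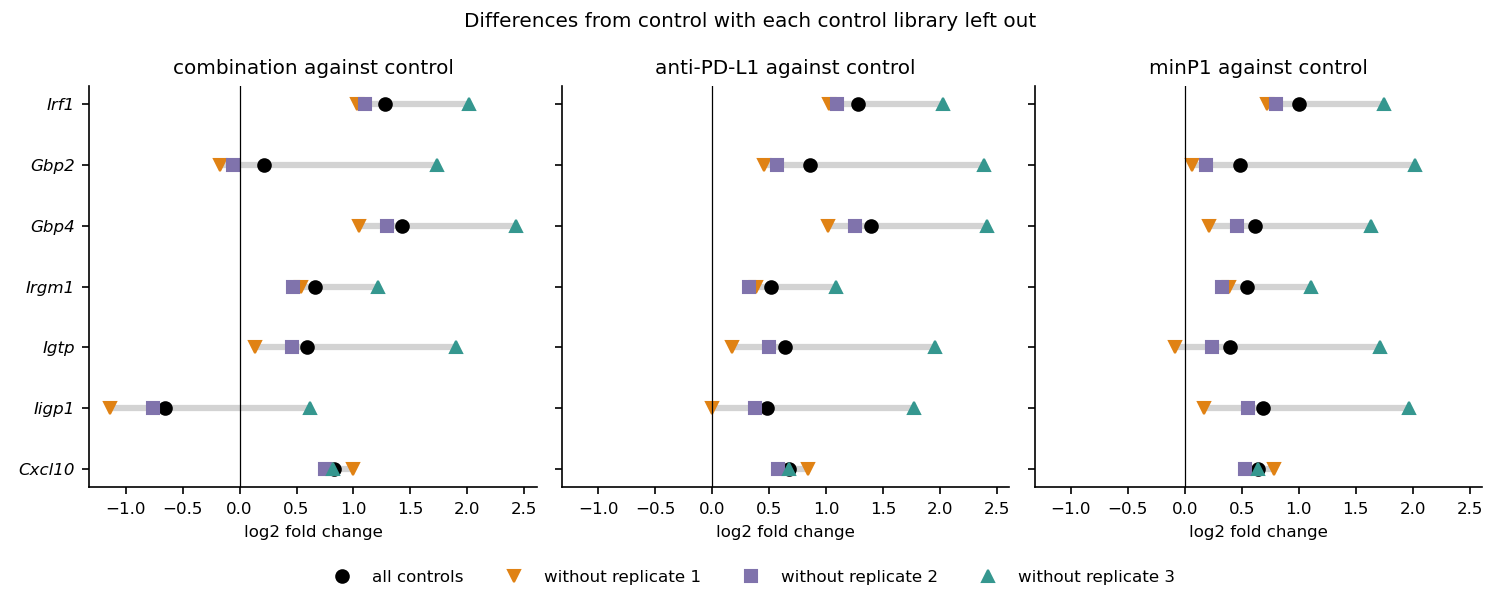
Log2 fold change against control (x axis) of the 7 tested genes for the combination, anti-PD-L1 and minP1 (left to right), with all controls (circle) and with control replicate 1, 2 or 3 left out; grey bars join the values of a gene. Without replicate 3 all members except Cxcl10 move to the right, in the combination Iigp1 to 0.62 and Gbp4 to 2.43.

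The combination was then set against each lone treatment. Of the 7 tested members 0 passed against anti-PD-L1 and 0 against minP1 in edgeR, where 6.94% and 20% of all genes passed. By edgeR's unadjusted p, Iigp1 was under 0.05 against minP1 and no member was against anti-PD-L1, and limma voom called 0 members in both comparisons. DESeq2 also called 0, but against anti-PD-L1 it gave no adjusted p for 2 of the 7. Iigp1 was lower without overlap in both, by -1.14 ± 0.61 against anti-PD-L1 (adjusted p = 0.262) and by -1.34 ± 0.59 against minP1 (adjusted p = 0.109), where 14.9% and 20.9% of all genes were lower without overlap. Against minP1 it passed in the fit of all genes with counts (-1.41, adjusted p = 0.0115, where 5.03% of all genes passed), without control replicate 1 (-1.31, adjusted p = 0.0342), without control replicate 3 (-1.35, adjusted p = 0.0454), with the replicate block (-1.40, adjusted p = 0.0317), and with only these groups fitted (-1.38, adjusted p = 0.03). It shrank to -0.58 with the Bc1 covariate (adjusted p = 0.564) and to -0.84 without minP1 replicate 3 (adjusted p = 0.407). Against anti-PD-L1 it passed with only these groups fitted (-1.19, adjusted p = 0.0484). The fitted difference of Gbp4 between the combination and minP1 was 0.81 ± 0.43 (adjusted p = 0.179). Its libraries were higher without overlap, as were those of 16.6% of all genes, but only just. The lowest combination library had 125.3 CPM and the highest minP1 library 125.1 CPM, a gap smaller than the worth of 1 count. Irf1 had nearly the same mean in the combination and with anti-PD-L1, as given above, and the remaining differences from the lone treatments lay between -0.64 and 0.28.

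The interaction, which is the difference between the combination and anti-PD-L1 minus that between minP1 and control, was below 0 for 7 of 7 members, with a median of -0.59 beside -0.09 over all genes, of which 44.5% were above 0. None of the members passed, and 0% of all genes did. As in the comparisons with control, the members are not separate observations. It was -1.83 ± 0.78 for Iigp1 (adjusted p = 0.405), -1.13 ± 0.80 for Gbp2 (adjusted p = 0.643) and -1.0 ± 0.45 for Irf1 (adjusted p = 0.43). By edgeR's unadjusted p, 2 members were under 0.05, Iigp1 and Irf1. Limma voom called 0 members, and DESeq2 gave an adjusted p for only 1 of the 7 and called 0. On leaving out 1 library the Iigp1 value ranged from -3.12 (without control replicate 3) to -1.31 (without control replicate 1), and the Gbp2 value from -2.67 (without control replicate 3) to -0.48 (without anti-PD-L1 replicate 2).

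Of a list of 42 further genes of the pathway, 41 are in the tables and 25 were tested. In the combination against control 5 rose and 2 fell in edgeR, beside 16.5% and 18.3% of all genes, so the share called was not above the 34.8% of all genes called in either direction. With anti-PD-L1 0 passed in edgeR and 8 had an unadjusted p under 0.05. There limma voom and the replicate block called Gbp2b and Psme2, DESeq2 called Psme2 but gave no adjusted p for 17 of the 25, and the fit without the filter on low counts called Gbp2b and Psmb9; Psme2 also passed with only these groups fitted or without combination replicate 3, and it and Gbp2b without minP1 replicate 2. With minP1 0 passed in edgeR, DESeq2 and limma voom, and 3 had an unadjusted p under 0.05. The medians of the 25 were 0.55 in the combination, 0.61 with anti-PD-L1 and 0.55 with minP1. Among the signalling genes, Ifngr1, the ligand-binding receptor subunit, had 205, 161 and 209 CPM in the combination against 57.2, 65.8 and 56.0 CPM in control and rose by 1.68 ± 0.32 (adjusted p = 0.000406). Irf9, a subunit of the complex that type I interferons activate, rose by 1.39 ± 0.38 (adjusted p = 0.00735). Socs3, a feedback inhibitor of cytokine receptors, had 0, 11.9 and 16.9 CPM in the combination against 34.3, 58.5 and 76.1 CPM in control and fell by 2.36 (adjusted p = 0.0174). The combination held 5 counts of Socs3 in all, with no library above 3 counts, the floor for counting error. Jak1, a kinase of the receptor, fell by 1.30 with overlapping groups (adjusted p = 0.0339).

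Among 10 other tested GTPase genes 1 rose in the combination. Gbp2b, a guanylate-binding protein encoded beside Gbp2, had 837, 597 and 1038 CPM in the combination, 338, 612 and 482 CPM with anti-PD-L1, and 177, 374 and 346 CPM with minP1, against 42.9, 91.4 and 390 CPM in control. It rose by 2.19 ± 0.46 (adjusted p = 0.000888), and similar family members may share reads with it. Of the effectors, Psmb9, a subunit of the immunoproteasome, rose by 1.45 ± 0.43 (adjusted p = 0.0114) with overlapping groups. Its lowest combination library had 79.0 CPM and its highest control library 107 CPM. Psme2, a subunit of the proteasome activator, rose by 1.06 ± 0.23 (adjusted p = 0.00102). Cd274, which encodes PD-L1 and was not tested, had 4, 2 and 3 counts in the combination, 2, 5 and 1 with anti-PD-L1, and 1, 1 and 3 with minP1, against 0, 1 and 7 in control.

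Control replicate 3 was the highest control for 30 of the 41 genes and at least 2 times both others for 11 of the 25 tested. Without it 10 pathway genes rose in the combination and 0 fell, 5 rose with anti-PD-L1 and 1 (Gbp2b) with minP1. In the same fits 12.2% of all genes were higher and 13.8% lower in the combination, 0.746% were higher with anti-PD-L1 and 0.0848% with minP1. Gbp3, Gbp6, Irgm2 and Psmb8 were among the genes added in the combination, and the falls of Jak1 and Socs3 were lost. Both falls were also lost without combination replicate 1 or 2, and that of Jak1 without control replicate 2, in DESeq2, in limma voom and with only these groups fitted, where Socs3 was not tested; Psmb9 was lost without combination replicate 2. With the Bc1 level as a covariate both falls and the rises of Irf9 and Psmb9 were lost, and Gbp3 and Gbp6 were added. Against minP1, Ifngr1 (1.42 ± 0.32, adjusted p = 0.00349), Irf2 (1.78 ± 0.46, adjusted p = 0.00814) and Gbp2b (1.46 ± 0.45, adjusted p = 0.0236) rose in the combination and Socs3 fell by 2.22 (adjusted p = 0.0437), where 9.19% of all genes were higher and 10.8% lower. The fall of Socs3 was lost without control replicate 2, minP1 replicate 1 or 3, anti-PD-L1 replicate 2, or combination replicate 1, 2 or 3, in DESeq2, in limma voom and with the Bc1 covariate. Gbp2b was lost without minP1 replicate 1 or combination replicate 3 and in DESeq2, and Irf2 without combination replicate 2 or with the Bc1 covariate. With only these groups fitted, Socs3 and Irf2 were not tested. Ifngr1 passed in every fit that left out 1 library. Against anti-PD-L1 0 of the 25 passed in edgeR, and 3 had an unadjusted p under 0.05; 0 passed in limma voom, and in DESeq2, which gave no adjusted p for 12 of the 25. Socs3 passed there as a fall without anti-PD-L1 replicate 1 and in the fit without the filter on low counts. The recounts of the pathway genes were chosen after seeing the data.

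**Figure D5:**
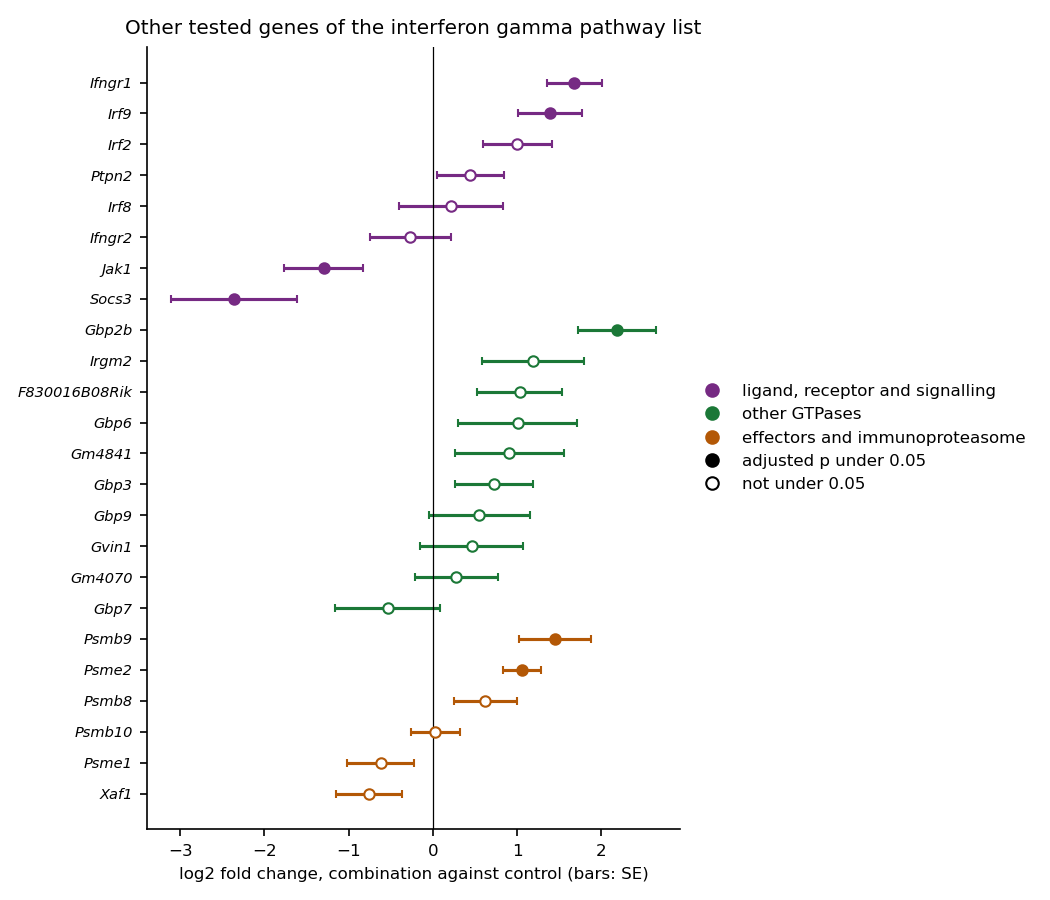
Log2 fold change of the combination against control (x axis) for 24 of the 25 tested genes of the further pathway list, grouped as signalling (purple), other GTPases (green) and effectors (orange); bars are standard errors and filled points passed at an adjusted p under 0.05. The 7 filled points include Gbp2b at 2.19 and Ifngr1 at 1.68 on the right and Socs3 on the left.

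Markers of several cell types also differed between the groups. Of the 10 T cell markers listed, 8 are in the tables, and their summed level was 152 to 256 CPM in the combination, 96.4 to 169 CPM with anti-PD-L1 and 75.7 to 128 CPM with minP1, against 32.9 to 67.2 CPM in control. Most of it was Thy1, the 1 tested marker of the list, which rose in the combination by 1.65 ± 0.37 (adjusted p = 0.00174). The others had few counts, which are given unscaled although the combination libraries were smaller than those of control. Cd2 had 18 counts in the combination, 10 with anti-PD-L1 and 8 with minP1, against 3 in control. Cd3e had 6, 4 and 2 in the same order, against 1 in control, and Cd4 had 6, 2 and 2, against 0 in control. Cd8a had 1 count in the combination, 0 with anti-PD-L1 and 2 with minP1, against 4 in control. Cd3d had 2, 3 and 3 in the same order, against 4 in control, and Cd3g had 3, 5 and 1, against 4. Cd8b1 had 3, 8 and 8, against 7 in control. The 7 natural killer markers in the tables summed to 65.6 to 118 CPM in the combination, 66.7 to 103 CPM with anti-PD-L1 and 86.5 to 135 CPM with minP1, against 42.9 to 91.8 CPM in control. Gzma, the 1 tested, differed by 0.34 ± 0.47 in the combination (adjusted p = 0.609). Klrd1 averaged 19.2 ± 3.0 CPM in the combination, 20.5 ± 13.9 CPM with anti-PD-L1 and 14.3 ± 3.6 CPM with minP1, against 7.0 ± 7.2 CPM in control. Eomes had 8 counts in the combination, 3 with anti-PD-L1 and 6 with minP1, against 4 in control, and Ncr1 had 0 to 2 counts in every group. Klrk1 had 1 count in the combination, 7 with anti-PD-L1 and 6 with minP1, against 10 in control. Gzmb had 1, 7 and 11 in the same order, against 6 in control, and Klrb1c had 2, 2 and 0, against 2.

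The 10 macrophage and monocyte markers summed to 1523 to 2809 CPM in the combination and 978 to 1402 CPM with anti-PD-L1. They summed to 756 to 1116 CPM with minP1, against 1065 to 1102 CPM in control. Of 7 tested, 3 rose in the combination (C1qc, Ms4a7 and Mrc1), where 16.5% of all genes did. The difference was above 0 for 5 of the 7 and below 0 for 2. C1qb averaged 57.5 CPM in the combination against 75.1 CPM in control, and Ccr2 131 against 151 CPM. C1qa averaged 520 ± 283 against 313 ± 80.1 CPM, and Ly6c2 64.9 against 39.0 CPM. Of those not tested, Adgre1 averaged 57.2 ± 54.0 against 19.7 CPM, Csf1r 14.3 against 12.3 CPM and Cd68 1.99 against 4.35 CPM. The 6 dendritic cell markers in the tables summed to 83.5 to 95.9 CPM in the combination, 55.1 to 127 CPM with anti-PD-L1 and 36.2 to 117 CPM with minP1, against 22.9 to 62.7 CPM in control. Siglech, the 1 tested, rose in the combination by 2.29 ± 0.67 (adjusted p = 0.0112). It made up most of the sum there, averaging 65.2 CPM against 12.5 CPM in control. The other dendritic cell markers had few counts. Zbtb46, Ccr7 and Cd209a averaged 0 CPM in the combination, against 6.11, 4.20 and 3.13 CPM in control. Flt3 averaged 9.73 against 7.54 CPM and Xcr1 13.3 against 10.8 CPM. The 6 neutrophil markers summed to 364 to 429 CPM in the combination, 214 to 278 CPM with anti-PD-L1 and 218 to 286 CPM with minP1, against 311 to 372 CPM in control. Of the 3 tested, S100a9 (175 ± 17.1 CPM in the combination against 17.5 ± 19.9 CPM in control) and Csf3r rose and Cxcr2 fell. Of all genes 16.5% rose and 18.3% fell in this comparison. The other neutrophil markers had few counts. S100a8 had 2 counts in the combination and 2 in control, Retnlg 0 against 7 and Ly6g 0 against 0. The 5 fibroblast markers summed to 705 to 1093 CPM in the combination and 870 to 945 CPM with anti-PD-L1. They summed to 912 to 1054 CPM with minP1, against 890 to 1323 CPM in control. Of 4 tested, Col1a2 and Pdgfra fell in the combination, where 18.3% of all genes did. The difference was above 0 for 1 of the 4. Col1a1 averaged 334 ± 145 CPM in the combination against 224 ± 91.5 CPM in control, and Col3a1 85.7 ± 74.9 against 79.2 ± 36.4 CPM. Dcn, not tested, averaged 21.5 against 28.2 CPM.

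The small noncoding RNA Bc1 and the gene Lrrc17 together took 2.49% to 6.32% of counts in the combination, 2.35% to 4.42% with anti-PD-L1 and 1.5% to 4.17% with minP1, against 1.36% to 2.34% in control. In each group the library with the lowest Bc1 level had the highest summed level of the 9 members. This was replicate 3 of the combination (12165 CPM of Bc1), replicate 2 of anti-PD-L1 (12460 CPM) and replicate 3 of minP1 (8081 CPM). In control it was replicate 3 (7289 CPM, against 12433 and 9730 CPM in replicates 1 and 2). The cause of this order was not tested. The part of the markers in the results was not tested. With the Bc1 level as a covariate Irf1 and Gbp4 were higher in the combination against control, by 1.81 (adjusted p = 0.00119) and 2.44 (adjusted p = 0.000618). Gbp4 then also passed against minP1 (1.54, adjusted p = 0.0141) and with anti-PD-L1 against control (2.14, adjusted p = 0.0096). The covariate itself differed between groups, at 12165 to 37137 CPM in the combination against 7289 to 12433 CPM in control. This fit therefore cannot tell its part from that of the treatment.

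Genes outside both lists were ranked by how closely their log2 levels, standardised over the 12 libraries, followed the summed level of the 9 members. The measure is the mean absolute difference in SD units, whose median over 5411 genes was 1.09. The closest were Ly6a at 0.208, Tapbp at 0.307, Erap1 at 0.334, Tpbg at 0.364, Ppm1b at 0.401 and Ccl8 at 0.407. Ly6a, which encodes the surface protein Sca-1, had 555, 394 and 559 CPM in the combination, 326, 567 and 647 CPM with anti-PD-L1, and 376, 341 and 507 CPM with minP1, against 83, 132 and 392 CPM in control. Tapbp (tapasin) and Erap1 act in peptide loading of MHC class I. The 6 closest to Irf1 alone were Ly6a at 0.252, Tapbp at 0.303, Ccl8 at 0.318, Fam53c at 0.322, Tap1 at 0.324 and Mt1 at 0.383. Tap1, the peptide transporter of the same pathway, had 359, 370 and 310 CPM in the combination, 332, 304 and 245 CPM with anti-PD-L1, and 162, 194 and 277 CPM with minP1, against 60.1, 69.5 and 181 CPM in control. All points share the same libraries and depth, and the ranking is a description.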

How the data were processed

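Messenger RNA of total tumour cells was measured in 12 libraries by 5′-end serial analysis of gene expression. The authors deposited 1 table per library with raw counts for each gene symbol. Bowtie2 2.2.5, R 3.6.1 and DESeq2 with the mouse build mm10 are named in the submitters' processing notes. How reads were counted, whether strand was used and what was done with multiply mapping reads is not stated in the labels, so genes with similar or overlapping copies are uncertain. No molecular identifiers are recorded, and floors (3 counts) cover counting error only.

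Groups were taken from the sample titles. Genes were kept with filterByExpr of edgeR 4.0.16 (R 4.3.3), which kept 5443 genes (89.8% to 93.6% of the counts of a library) and set 14478 aside. Library sizes were summed over kept genes and scaled with trimmed-mean (TMM) factors. The quasi-likelihood test was fitted to all 12 libraries with 1 mean per group, which estimates the spread from all groups, with Benjamini-Hochberg adjustment within each of 6 comparisons and a threshold of 0.05 (prior count 0.125). DESeq2 1.42.0 and limma voom (limma 3.58.1) were alternatives. Alternatives also covered the filter, the scaling, the groups in the fit, a replicate block, a Bc1 covariate and leaving out libraries. The fit was tested on simulated counts. An exact permutation test of 3 against 3 libraries cannot go below p = 0.1 and was not used. Libraries of 1 group differed by more than sampling noise in all pairs (chi-square over its degrees of freedom 1.68 to 6.07).

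The 9 genes, the pathway list, the markers and the tests were chosen with earlier results of these data known. Named were the 9 genes, the pathway genes that passed plus Ifng and Cd274, and the 6 genes most like the members in pattern; Psmb8, Gbp3, Gbp6 and Irgm2, and the marker genes, were named after their values were seen. Of the pathway list, 1 tested gene enters the counts and medians and is not reported here by itself. Gene coordinates are from GENCODE M21 (GRCm38) and promoters from RefSeq (GRCm38.p6).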

Additional observations from a re-analysis of the deposited data

Results flagged for a closer look

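Iigp1 is listed because all 3 minP1 libraries lay above the control mean and all 3 combination libraries below the anti-PD-L1 mean. The fitted minP1 difference also changed sign with the antibody for Gbp2 (-0.64 with it and 0.49 without) and Igtp (-0.042 with it and 0.40 without), whose libraries were not so separated. The Iigp1 levels of the combination libraries (34.1, 59.7 and 56.4 CPM) lay below all anti-PD-L1 libraries (72.5, 145 and 117 CPM), while minP1 libraries (102, 87.9 and 201 CPM) lay above the control mean of 78.1 CPM. The difference between the effects, tested as an interaction in edgeR, was -1.83 ± 0.78 and did not pass (adjusted p = 0.405). Without the filter on low counts it was -1.92 ± 0.52 (adjusted p = 0.0775), and without control replicate 3 -3.12 ± 0.70 (adjusted p = 0.117). Without control replicate 1 it was -1.31 (adjusted p = 0.463), and the adjusted p reached 0.657 on leaving out 1 library. DESeq2 gave no adjusted p for it. Over all alternatives with a value the adjusted p did not fall under 0.05.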

How the results depend on the processing

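With 3 libraries a group and 133917 to 473273 counts each, small differences of members with few counts could not be detected, and Cxcl9 and Nlrc5 were too low in count to enter the main test. Of the 7 tested members the number called with anti-PD-L1 against control was 1 (1.12% of all genes called). It was 2 (Gbp4 added) without the filter on low counts (of 9 members, 0.838% of all genes), with the replicate block (3.18%) and with the Bc1 covariate (0.423%). It was 0 without both anti-PD-L1 replicate 1 and minP1 replicate 2 (0.411%), 0 with TMM factors set before the filter (0.955%), and 0 to 3 over the 12 fits that each left out 1 library. With minP1 it was 0, and 0 to 1 on leaving out 1 library. In the combination it was 2, and 2 to 4 on leaving out 1 library; it was 3 (Cxcl10 added) with only the groups compared (36.9% of all genes) and without both libraries above (36.1%). The combination against anti-PD-L1 gave 0, and 1 (Iigp1) with only the groups compared in the fit. Against minP1 it gave 0, but 1 without the filter, with the replicate block and with only the groups compared (Iigp1 in each), 1 with the Bc1 covariate (Gbp4), and 0 to 1 on leaving out 1 library. The interaction gave 0 under every alternative run, of which DESeq2 gave no adjusted p for 6 of the 7; it could not be fitted with only 2 groups. The TMM factors set before the filter, the library sizes over all genes and the counts of the pathway list under the alternatives were chosen after seeing the data. Without the filter the median of all genes in the combination against control was -0.29, beside -0.06 with it.

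Signs changed for several members, none of which passed in the main test of that comparison. Iigp1 in the combination against control was 0.13 with limma voom and 0.46 with the Bc1 covariate, and -1.14 to 0.62 on leaving out 1 library; Gbp2 there ranged over -0.35 to 1.74. In the combination against anti-PD-L1, Irf1 was -0.095 without the filter, -0.020 with limma voom, -0.043 with the replicate block, -0.048 with only these groups, -0.054 without both libraries above and -0.093 with TMM factors set before the filter. Gbp4 was -0.068, -0.024, -0.14 and -0.068 without the filter, with only these groups, without both libraries and with TMM factors set before the filter. Igtp was 0.027 with the Bc1 covariate and 0.059 without both libraries, and Cxcl10 was -0.083 without both. Leaving out 1 library gave there -0.26 to 0.17 for Irf1, -1.22 to 0.018 for Gbp2, -0.13 to 0.33 for Gbp4, -0.25 to 0.46 for Irgm1, -0.18 to 0.19 for Igtp and -0.083 to 0.53 for Cxcl10. Against minP1, Gbp2 was 0.59 with the Bc1 covariate, and leaving out 1 library gave -0.84 to 0.15 for Gbp2, -0.26 to 0.46 for Irgm1, -0.13 to 0.57 for Igtp and -0.073 to 0.54 for Cxcl10. The same gave -0.088 to 1.72 for Igtp with minP1, -0.0048 to 1.77 for Iigp1 with anti-PD-L1 and -1.77 to 0.052 for the Igtp interaction. The cause of these changes was not tested.

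Whether the replicate numbers pair the libraries is not given in the labels, and these correlations do not settle it. Deviations of same-numbered libraries of different groups correlated at -0.122 to 0.194 (9 of 18 pairs over 0.1). Those of other numbers correlated at -0.289 to 0.295 (6 of 36 over 0.1). With the replicate block (edgeR), the values in the combination against control were 1.34 for Irf1 (adjusted p = 0.000529) and 1.51 for Gbp4 (adjusted p = 0.00391).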
